A study of Arabidopsis thaliana with 18 samples.

Results

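The comparison described here asked which Arabidopsis genes answered a shift to moderate temperature differently when the immune receptor RPS4 was over-expressed. For each gene it takes the response of 35S:RPS4 leaves over 8 h and subtracts the response of Col-0 wild-type leaves, that is (35S:RPS4 at 8 h minus 0 h) minus (Col-0 at 8 h minus 0 h). The 12 libraries of these 4 groups, 3 per group, were chosen by their labels alone out of 18 in all. Every plant was Col-0 in background, grew for 3.5 weeks at 28 °C and was sampled as leaves. Leaves at 0 h stayed at 28 °C, and leaves at 8 h had spent 8 h at 19 °C. The line labelled Col-0 35S:RPS4-HS, called 35S:RPS4 here, carries RPS4 under the 35S promoter, which drives a gene in nearly all cells. Its receptor is thus present in cells and amounts that are not those of the native gene, and no pathogen was applied. The labels name 1 such line. They leave unsaid whether replicates were different plants, and p-values here cover the scatter among libraries, which may be technical. The clock time of harvest advanced with the hours at 19 °C in both lines, and these cannot be told apart within a line.

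RPS4 is an intracellular receptor of the TIR-NB-LRR (TNL) class, which pairs with RRS1 to detect bacterial effector proteins inside leaf cells. TNL receptors signal through EDS1, which works in complexes with PAD4 or SAG101 and with helper receptors of the ADR1 and NRG1 families. The response that follows, effector-triggered immunity (ETI), is known for a burst of defence transcription, accumulation of the hormone salicylic acid (SA) and lower expression of genes for photosynthesis and growth. Warm growth conditions hold TNL responses back, which is why a drop in temperature can switch them on in such a line.

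RPS4 itself (AT5G45250, chr5:18321764-18326175 in the RefSeq annotation of TAIR10.1) stood at 12.7, 13.2 and 12.2 CPM in Col-0 at 0 h, 20.07, 14.3 and 15.8 in Col-0 at 8 h, 995, 954 and 772 in 35S:RPS4 at 0 h and 718, 665 and 781 in 35S:RPS4 at 8 h. It was thus high in every 35S:RPS4 library and low in every Col-0 library, as the labels say. Its interaction of -0.73 ± 0.21 log2 units (± SE here and below, n = 3 libraries per group) lay below the fold threshold. Each SE is the size of the log2 value divided by the square root of its test's F statistic. It is thus an approximation, and is less sure where a group holds few counts. CPM are counts scaled to a common library size. A gene was called where the log2 interaction exceeded 1 in size with an adjusted p under 0.01 in edgeR's quasi-likelihood test, and "higher" or "lower" gives its sign. A higher interaction can come from a rise in 35S:RPS4, a fall in Col-0 or both, so each response is given beside it.

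Counts in genes ran from 23907787 to 36291942 over the 12 libraries. Col-0 replicates at 0 h were split in jasmonate genes, with a mean log2 level over the list of 4.51, 7.51 and 7.15. The over-expressing line stood at 5.26, 3.99 and 5.08 at 0 h. Col-0 replicate 1 lay within that range, and replicates 2 and 3 lay above it. Col-0 replicate 3 at 8 h stood apart from replicates 1 and 2 at 8 h in NAC factors, at 4.08 against 1.93 and 2.02, and in abscisic acid genes, at 4.42 against 2.95 and 3.06. The larger changes in counts and calls without Col-0 replicate 1 at 0 h or replicate 3 at 8 h are given beside the results. So are those with replicate 1 as the lone Col-0 library at 0 h. Col-0 replicate 2 at 0 h also lay above replicates 1 and 3 in cold genes, with a summed level of 4437 CPM against 935 and 2197. In WRKY factors its mean log2 level was 1.25 against 0.29 and 0.22. Without it, 93.5% of the called genes were called again in the same direction. The strand setting of the counting is not given, so reads of a gene on the other strand could be included for MAPKKK19, SARD1, HSP17.4, AT3G48080, FRK1, SR1, AT2G04400, DREB1A, BOA, SHY2, CPD, ATAF2, PORB, GUN4, CDKB2;2, TT4 and CCR2, which overlap such exons.

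Of 20023 genes tested, 52.2% were called in the interaction. The interaction was higher for 4986 genes (24.9%) and lower for 5464 (27.3%). In 35S:RPS4 the shift changed 56.2% of genes, with 5306 up (26.5%) and 5956 down (29.7%). In Col-0 it changed 22.3%, with 2107 up (10.5%) and 2368 down (11.8%). The median size of the response over all tested genes was 1.38 log2 units in 35S:RPS4 and 0.593 in Col-0. Interactions above 4 log2 units were called for 1098 genes and below -4 for 1324, while the median over all tested genes was -0.06. The counts of each gene list below stand against these shares of 24.9% higher and 27.3% lower and this median. At an unadjusted p under 0.05, 14253 genes passed. Of the called genes, 600 had 3 or fewer counts in at least 1 group, and named genes of this kind are given as levels without a fold.

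The called genes fell into classes by the line in which the response passed the test, and both responses share their libraries with the interaction. For 3248 of the higher and 3372 of the lower genes, the response was called in 35S:RPS4 alone, with median interactions of 2.40 and -2.63. For 371 higher genes Col-0 fell while 35S:RPS4 rose, and for 427 lower genes Col-0 rose while 35S:RPS4 fell. These opposite classes had the widest medians of all classes, 4.17 and -4.08. Their definition favours this, since both responses must exceed 1 in size in opposite directions. For 448 higher and 537 lower genes only the Col-0 response was called. Both lines moved the same way and 35S:RPS4 further for 274 higher and 600 lower genes. For 45 higher and 48 lower genes both lines moved the same way and 35S:RPS4 less far. With Col-0 at 0 h reduced to replicate 1, the opposite classes held 191 and 218 genes, and the higher class called in Col-0 only held 274. The remaining 600 higher and 480 lower genes were called in neither response taken singly.

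**Figure D1:**
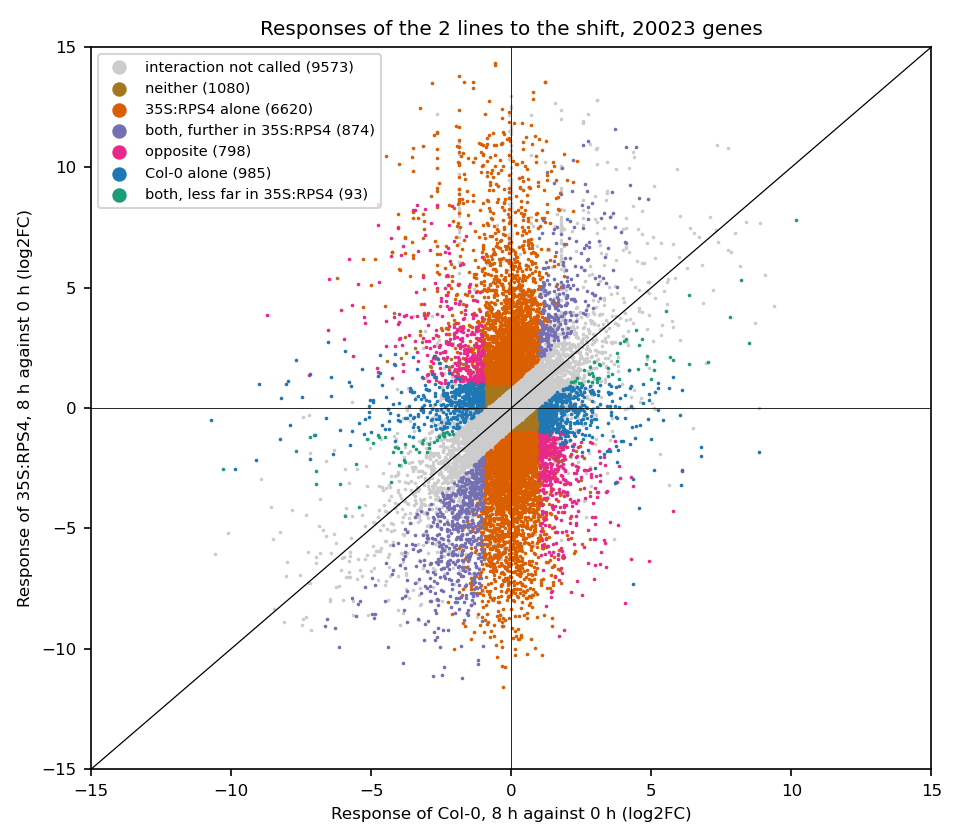
Log2 response to the shift of each of the 20023 tested genes, Col-0 on the x axis and 35S:RPS4 on the y axis, coloured by class. Genes on the diagonal responded alike. The 6620 genes called in 35S:RPS4 alone form the vertical band around 0 on the x axis, and the 798 genes called in opposite directions lie in the upper left and lower right.

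The promoters of 6 genes, picked after their matches were seen, show the letters behind the motif shares given further on. Each is the 250 bases before the annotated gene start in TAIR10.1, read from RefSeq. The motifs were the W box (TTGAC), bound by WRKY factors, the CAMTA box (CGCGT), bound by calmodulin-binding CAMTA factors, and the heat shock element (GAANNTTC), bound by heat shock factors. They also included the site II element (TGGGCC) and the telo box (AAACCCTA), both known from genes for ribosomal proteins, the evening element (AAAATATCT), known from clock-regulated genes, and the I box (GATAAG), known from light-regulated genes. All were searched on both strands, matches of 1 motif or of different motifs may overlap, and capitals mark each match of the motifs named for that gene.

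SARD1, a transcription factor gene for SA synthesis, at chr1:27749249-27749498 on the minus strand, with W boxes and a CAMTA box in capitals, and ZAT7, a zinc finger factor gene, at chr3:16926884-16927133 on the minus strand, with the same motifs, stand for genes with a high interaction:
SARD1: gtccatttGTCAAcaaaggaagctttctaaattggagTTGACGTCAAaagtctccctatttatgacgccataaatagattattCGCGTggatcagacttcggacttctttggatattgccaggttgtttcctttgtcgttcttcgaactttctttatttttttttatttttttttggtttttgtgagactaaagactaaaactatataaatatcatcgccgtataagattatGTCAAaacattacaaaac
ZAT7: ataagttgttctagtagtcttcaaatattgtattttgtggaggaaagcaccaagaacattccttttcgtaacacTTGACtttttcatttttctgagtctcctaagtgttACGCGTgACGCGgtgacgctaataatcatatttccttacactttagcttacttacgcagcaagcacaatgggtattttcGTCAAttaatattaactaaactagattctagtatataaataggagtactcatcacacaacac
FRK1, a receptor kinase gene used as a marker of pattern-triggered immunity (PTI), at chr2:8329945-8330194 on the minus strand, shows 3 W boxes:
FRK1: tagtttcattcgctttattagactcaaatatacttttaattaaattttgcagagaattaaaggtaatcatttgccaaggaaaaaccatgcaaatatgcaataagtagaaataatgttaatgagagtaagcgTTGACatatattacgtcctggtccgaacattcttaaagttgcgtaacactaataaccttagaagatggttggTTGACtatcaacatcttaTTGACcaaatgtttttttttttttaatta
HSP17.4, a small heat shock protein gene, at chr3:16984868-16985117 on the minus strand, stands for the heat shock element:
HSP17.4: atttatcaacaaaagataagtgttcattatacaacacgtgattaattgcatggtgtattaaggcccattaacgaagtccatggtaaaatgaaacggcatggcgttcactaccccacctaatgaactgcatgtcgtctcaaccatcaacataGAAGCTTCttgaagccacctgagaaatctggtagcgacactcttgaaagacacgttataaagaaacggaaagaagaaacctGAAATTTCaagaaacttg
AT5G27120, which encodes the nucleolar protein NOP58-1, at chr5:9540611-9540860 on the plus strand, stands for the site II element and the telo box:
AT5G27120: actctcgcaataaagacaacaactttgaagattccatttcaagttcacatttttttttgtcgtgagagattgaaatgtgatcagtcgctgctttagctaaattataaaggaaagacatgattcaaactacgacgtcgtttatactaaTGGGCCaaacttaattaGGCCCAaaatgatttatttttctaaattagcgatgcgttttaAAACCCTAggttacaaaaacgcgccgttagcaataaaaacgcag
PORB, a chlorophyll synthesis gene that rose in Col-0 alone, at chr4:13725296-13725545 on the plus strand, stands for the evening element:
PORB: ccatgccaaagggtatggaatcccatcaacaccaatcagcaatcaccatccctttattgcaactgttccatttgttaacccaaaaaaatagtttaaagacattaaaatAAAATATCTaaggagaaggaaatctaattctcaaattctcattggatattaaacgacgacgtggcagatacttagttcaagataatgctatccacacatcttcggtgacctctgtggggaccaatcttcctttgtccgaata

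In the EDS1 hub, 9 of 9 tested genes had a higher interaction and 0 a lower one, with a median of 4.12 log2 units against -0.06 over all tested genes. PAD4 (AT3G52430, chr3:19431095-19434450) stood at 21.6, 23.3 and 22.8 CPM in Col-0 at 0 h, 35.1, 38.1 and 38.9 in Col-0 at 8 h, 29.1, 32.3 and 28.5 in 35S:RPS4 at 0 h and 3561, 3185 and 3199 in 35S:RPS4 at 8 h. Its interaction was 6.06 ± 0.20 (adjusted p 1.03e-11), and the response of 0.73 ± 0.13 in Col-0 stayed under the fold threshold. EDS1 (AT3G48090) stood at 12.5, 13.0 and 11.1 CPM in Col-0 at 0 h, 21.6, 18.5 and 19.6 in Col-0 at 8 h, 10.9, 8.82 and 14.5 in 35S:RPS4 at 0 h and 995, 1039.6 and 955 in 35S:RPS4 at 8 h. For both genes the 35S:RPS4 libraries at 8 h lay far above all others, and the interaction of EDS1 was 5.74 ± 0.23 (adjusted p 1.66e-11). The helper receptor NRG1.2 (AT5G66910) had an interaction of 5.29 ± 0.25, and EDS1B (AT3G48080), the neighbouring copy of EDS1, one of 4.15 ± 0.95.

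Genes that make SA and N-hydroxypipecolic acid, the mobile signal of systemic acquired resistance, gave the widest median of the defence lists. Of 12 tested, 11 were higher and 0 lower (median 8.19). FMO1 (AT1G19250, chr1:6650476-6653195), which makes N-hydroxypipecolic acid, stood at 0.243, 0.199 and 0.330 CPM in Col-0 at 0 h, 0.194, 0.164 and 0.0325 in Col-0 at 8 h, 0.0635, 0.247 and 0.184 in 35S:RPS4 at 0 h and 1051, 597 and 671 in 35S:RPS4 at 8 h. All 9 libraries outside 35S:RPS4 at 8 h held at most 0.330 CPM of it, and the interaction was 13.17 ± 0.93 (adjusted p 2.92e-09). ALD1, which acts a step earlier, was between 0.0734 and 0.783 CPM in those 9 libraries and 947, 829.8 and 799 in 35S:RPS4 at 8 h, with an interaction of 11.63 ± 1.13. SARD1 (AT1G73805) stood at 2.15, 1.296 and 1.505 CPM in Col-0 at 0 h, 6.93, 6.41 and 9.43 in Col-0 at 8 h, 1.46, 1.32 and 1.33 in 35S:RPS4 at 0 h and 1861, 1682 and 1698 in 35S:RPS4 at 8 h. It rose in both lines, by 2.198 ± 0.24 in Col-0 and 10.31 ± 0.31 in 35S:RPS4, which left an interaction of 8.11 ± 0.36 (adjusted p 3.28e-11). UGT76B1, a glycosyltransferase that inactivates both signals, was between 0.254 and 2.102 CPM outside 35S:RPS4 at 8 h and 2529, 2576 and 2195 in it. Its interaction had been 1.38 at 4 h and was 12.11 at 8 h, and this change of 10.73 ± 1.08 passed the test (adjusted p 4.97e-07).

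Among genes that act after SA, of 20 tested, 17 were higher and 1 lower (median 3.62, against 1.99 at 4 h). PR1 (AT2G14610, chr2:6241640-6242541), the classic secreted marker of SA signalling, stood at 0.104, 0.133 and 0.220 CPM in Col-0 at 0 h, 0.0647, 0.164 and 0.130 in Col-0 at 8 h, 0.0635, 0.453 and 0.1104 in 35S:RPS4 at 0 h and 976, 817 and 749.8 in 35S:RPS4 at 8 h. The interaction of PR1 was 1.14 at 4 h and 12.38 ± 1.59 at 8 h (adjusted p 2.98e-06), and the change of 11.24 ± 1.47 was called (adjusted p 7.75e-06). GRX480 (AT1G28480), a glutaredoxin that binds TGA factors, stood at 0.590, 3.26 and 5.10 CPM in Col-0 at 0 h, 0.0647, 0.164 and 0.813 in Col-0 at 8 h, 1.11, 0.412 and 2.36 in 35S:RPS4 at 0 h and 210.5, 187 and 174 in 35S:RPS4 at 8 h. Its responses were -3.08 ± 0.74 in Col-0 and 7.19 ± 0.66 in 35S:RPS4, whose libraries at 8 h lay above all others. The lower gene of the list was NIMIN-3, a repressor that binds the SA receptor NPR1, with 3.54, 5.85 and 5.21 CPM in Col-0 at 0 h, 7.35, 8.65 and 8.10 in Col-0 at 8 h, 4.32, 5.32 and 5.30 in 35S:RPS4 at 0 h and 3.09, 4.14 and 2.84 in 35S:RPS4 at 8 h. Its interaction was -1.28 ± 0.30, with responses of 0.72 ± 0.21 in Col-0 and -0.56 ± 0.21 in 35S:RPS4 that were not called.

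Intracellular receptors were called in both directions. Of 21 tested NB-LRR (NLR) genes other than RPS4, 13 were higher and 2 lower (median 1.57). RPP1 (AT3G44480), which confers resistance to downy mildew, stood at 33.5, 39.1 and 31.3 CPM in Col-0 at 0 h, 13.8, 11.1 and 9.89 in Col-0 at 8 h, 32.2, 35.2 and 18.9 in 35S:RPS4 at 0 h and 117, 118 and 123 in 35S:RPS4 at 8 h. It fell in Col-0 and rose in 35S:RPS4, with an interaction of 3.63 ± 0.29 (adjusted p 1.36e-08). AT5G46520 (VICTR), a TNL gene, rose in both lines and further in 35S:RPS4, to 194, 159 and 179.8 CPM from 0.635, 1.15 and 0.663, with an interaction of 5.68 ± 0.35. SUMM2, a guard of the MAP kinase cascade, fell in both lines and further in 35S:RPS4, to 2.02, 2.37 and 2.23 from 17.1, 17.1 and 19.5 CPM. Its interaction was -1.97 ± 0.24.

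Cell-surface receptors and PTI markers were higher or not called. Of 25 tested, 17 were higher and 0 lower (median 3.68). BIR1 (AT5G48380), a receptor kinase that restrains BAK1 complexes, stood at 20.5, 71.4 and 39.6 CPM in Col-0 at 0 h, 39.5, 27.6 and 47.6 in Col-0 at 8 h, 26.2, 18.4 and 20.6 in 35S:RPS4 at 0 h and 1683, 1424 and 1527 in 35S:RPS4 at 8 h. Its interaction was 6.35 ± 0.48 (adjusted p 6.66e-09). FRK1 stood at 0.0347, 0.233 and 0.147 CPM in Col-0 at 0 h, 0, 0.263 and 1.92 in Col-0 at 8 h, 0.159, 0.288 and 0.0736 in 35S:RPS4 at 0 h and 183, 199 and 250.001 in 35S:RPS4 at 8 h. The spread of FRK1 in Col-0 was wide, and its interaction of 7.89 ± 1.87 (adjusted p 0.00125) was no longer called without Col-0 replicate 2 at 0 h (adjusted p 0.0298) or with replicate 1 alone there (0.391). Each of the 10 tested genes of the MAP kinase cascade, which acts below these receptors, was higher (median 3.01). Among them MKK4 stood at 404, 337 and 371 CPM in 35S:RPS4 at 8 h and between 6.64 and 13.7 CPM elsewhere (interaction 5.46 ± 0.24).

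Transcription factors of the WRKY family, which bind W boxes, showed 20 of 26 tested members higher and 0 lower (median 5.70, or 5.79 with members at 3 or fewer counts in a group set to their bounds). WRKY46 (AT2G46400, chr2:19043411-19044955) stood at 5.14, 8.04 and 5.73 CPM in Col-0 at 0 h, 1.91, 1.61 and 3.29 in Col-0 at 8 h, 5.40, 5.07 and 7.10 in 35S:RPS4 at 0 h and 1207, 1159 and 1212 in 35S:RPS4 at 8 h. Its responses were -1.47 ± 0.25 in Col-0 and 7.67 ± 0.29 in 35S:RPS4, so the lines moved apart (interaction 9.14 ± 0.37, adjusted p 1.66e-11). WRKY62 and WRKY75 had 0 counts in all 3 Col-0 libraries at 8 h, and are given as levels. WRKY62 was at 44.9, 42.0 and 36.4 CPM and WRKY75 at 16.4, 15.6 and 17.55 in 35S:RPS4 at 8 h, against at most 0.184 and 0.0412 in the other 9 libraries. ABO3 (AT1G66600), the WRKY factor WRKY63, had the largest interaction of the named genes with over 3 counts in each group, 15.75 ± 1.47. It stood at 527, 390.5 and 408 CPM in 35S:RPS4 at 8 h and between 0 and 1.40 CPM elsewhere. With Col-0 at 0 h reduced to replicate 1, 14 WRKY genes were called.

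Calcium channels, pumps and sensors carry early immune signals, and 18 of 23 tested were higher while 2 were lower (median 3.04). CNGC19 (AT3G17690), a plasma membrane calcium channel, was between 0.130 and 0.897 CPM outside 35S:RPS4 at 8 h and 162, 161 and 172 in it. Its interaction was 10.24 ± 0.64 (adjusted p 7.83e-10). The lower genes were DND1 (CNGC2) and CNGC4, subunits of a channel whose loss is known to set off defence. DND1 (AT5G15410) stood at 159, 185 and 203 CPM in Col-0 at 0 h, 111, 84.4 and 84.1 in Col-0 at 8 h, 183, 149.8 and 137 in 35S:RPS4 at 0 h and 2.42, 2.42 and 2.41 in 35S:RPS4 at 8 h. Its response in 35S:RPS4 was -6.01 ± 0.18, and the 8 h libraries of that line lay below all others (interaction -5.05 ± 0.22, adjusted p 2.43e-11). CNGC4 fell in both lines, with responses of -1.84 ± 0.15 in Col-0 and -4.26 ± 0.17 in 35S:RPS4. Of 6 CAMTA factors, which bind calmodulin and the CAMTA box, 3 were higher. SR1, which is CAMTA3, a member known from studies of immunity, stood at 31.2, 25.3 and 30.7 CPM in Col-0 at 0 h, 54.8, 31.5 and 38.3 in Col-0 at 8 h, 34.0, 28.2 and 26.7 in 35S:RPS4 at 0 h and 168, 156 and 166 in 35S:RPS4 at 8 h. Its interaction of 1.95 ± 0.24 was 3.75 at 4 h, a change of -1.80 ± 0.24 (adjusted p 7.88e-06).

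Cysteine-rich receptor kinases (CRKs), a family of cell-surface kinases, had 12 of 16 tested members higher and 1 lower (median 6.84). CRK13 (AT4G23210) stood at 1.18, 2.79 and 0.734 CPM in Col-0 at 0 h, 0.712, 0.888 and 1.59 in Col-0 at 8 h, 0.857, 1.73 and 0.994 in 35S:RPS4 at 0 h and 1692, 1742 and 1751 in 35S:RPS4 at 8 h. The 3 libraries of 35S:RPS4 at 8 h lay close together and far above the others, and the interaction was 11.08 ± 0.62 (adjusted p 3.00e-10). CRK21 was the lower member, with 39.2, 29.0 and 30.7 CPM in 35S:RPS4 at 8 h and between 81.5 and 130.3 CPM elsewhere (interaction -1.92 ± 0.22). Several CRK genes lie side by side on chromosome 4 and resemble each other, so reads shared between copies make single values less certain.

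**Figure D2:**
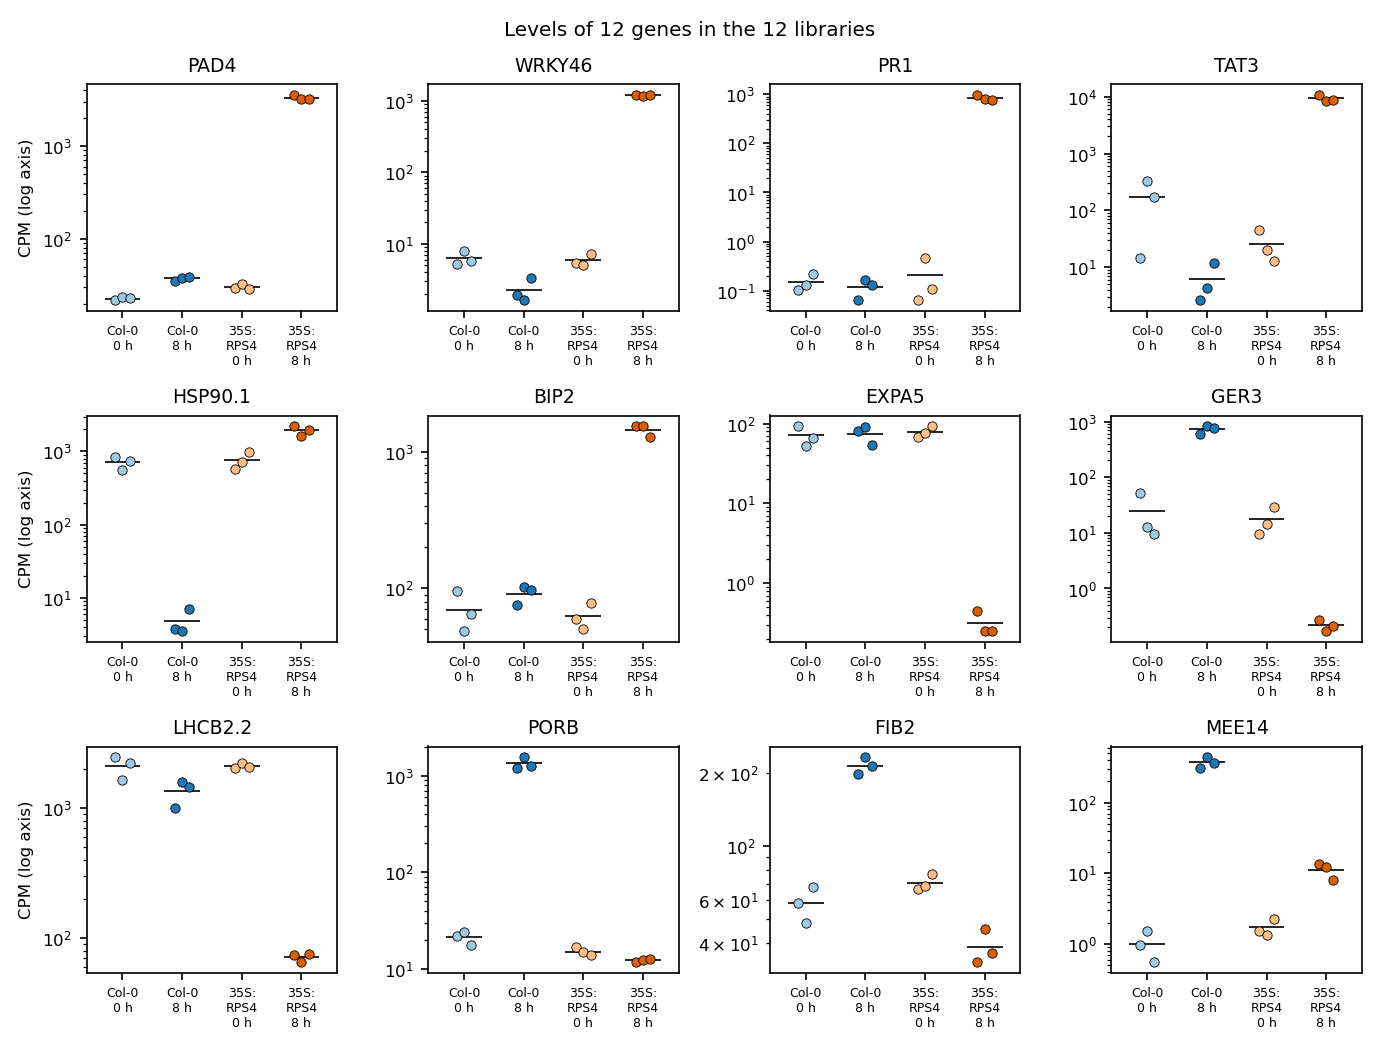
CPM of 12 genes in each of the 12 libraries on log axes, with points for libraries and a line for the group mean. PAD4, WRKY46, PR1 and TAT3 stand highest in 35S:RPS4 at 8 h, and HSP90.1 fell in Col-0 and rose in 35S:RPS4. EXPA5 and LHCB2.2 fell in 35S:RPS4 alone, and PORB, FIB2 and MEE14 rose in Col-0.

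The camalexin and indole glucosinolate pathways, which make tryptophan-derived defence compounds, had 5 higher and 1 lower genes of 18 tested (median 1.64, against 5.68 at 4 h). PAD3 (AT3G26830), the last enzyme of camalexin synthesis, stood at 0.104, 0.299 and 0.551 CPM in Col-0 at 0 h, 0.291, 0.329 and 0.293 in Col-0 at 8 h, 0.0635, 0.371 and 0.221 in 35S:RPS4 at 0 h and 502, 385 and 489.5 in 35S:RPS4 at 8 h. Its interaction was 11.13 ± 0.96 (adjusted p 2.74e-08). MYB34 (AT5G60890), a regulator of indole glucosinolates, stood at 46.2, 183 and 164 CPM in Col-0 at 0 h, 11.6, 10.9 and 14.9 in Col-0 at 8 h, 56.0, 44.1 and 88.9 in 35S:RPS4 at 0 h and 0, 1.296 and 0.496 in 35S:RPS4 at 8 h. It fell in both lines and further in 35S:RPS4, with an interaction of -3.17 ± 0.78. Limma voom did not call MYB34 (adjusted p 0.0171), which left no lower gene in the list. Leaving only Col-0 replicate 1 at 0 h, 3 genes of the list were higher and the median was 0.39, while DESeq2 called 8. Of 12 tested tryptophan and shikimate enzymes 7 were higher and 3 lower (median 1.2004). With Col-0 replicate 1 alone at 0 h, 3 were higher and 3 lower, and the median was 0.61. AT2G04400, indole-3-glycerol phosphate synthase, reached 425, 396 and 377 CPM in 35S:RPS4 at 8 h from 68.7, 47.3 and 89.4 at 0 h (interaction 3.51 ± 0.39). CM1, the chorismate mutase that leads away from tryptophan, fell to 6.94, 8.06 and 8.37 from 253, 261 and 299 CPM and had an interaction of -3.22 ± 0.32.

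Genes linked to cell death and oxidative stress were mostly higher, with 17 of 21 tested higher and 1 lower (median 4.61). BAP2 (AT2G45760), a membrane-associated inhibitor of cell death, stood at 0.347, 1.097 and 0.257 CPM in Col-0 at 0 h, 0.194, 0.329 and 0.293 in Col-0 at 8 h, 0.540, 0.536 and 0.147 in 35S:RPS4 at 0 h and 740.1, 608 and 625 in 35S:RPS4 at 8 h. Its interaction was 11.71 ± 0.78 (adjusted p 1.54e-09). MC8, a metacaspase, was 283, 223 and 264 CPM in 35S:RPS4 at 8 h and between 0.0324 and 0.390 CPM elsewhere. LOL1, a positive regulator of cell death, was the lower gene. It rose in Col-0 to 27.4, 35.4 and 25.8 CPM and fell in 35S:RPS4 to 3.99, 5.04 and 5.28 (interaction -2.40 ± 0.29). ZAT7 (AT3G46090), whose promoter is shown above, stood at 0.278, 0.632 and 0.147 CPM in Col-0 at 0 h, 0.0324, 0.132 and 0.358 in Col-0 at 8 h, 0.190, 0.412 and 0.368 in 35S:RPS4 at 0 h and 526, 475 and 447 in 35S:RPS4 at 8 h. Its interaction of 11.58 ± 0.84 was 10.91 at 4 h. Of 19 tested glutathione transferases, enzymes that conjugate toxic and stress-related compounds, 11 were higher and 2 lower (median 5.11, or 4.28 with such bounds). GSTU4 fell in Col-0 to 0, 0.0658 and 0.716 CPM from 1.22, 9.81 and 1.98 and rose in 35S:RPS4 to 258, 219.6 and 248 from 1.84, 0.577 and 1.58. GSTU20, known to bind the jasmonate enzyme JAR1, stood at 242, 307 and 230.0 CPM in Col-0 at 0 h, 159, 152 and 289 in Col-0 at 8 h, 313, 138 and 467 in 35S:RPS4 at 0 h and 1.66, 1.21 and 1.95 in 35S:RPS4 at 8 h. Its interaction was -7.21 ± 0.75 (adjusted p 2.63e-07).

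Genes for protein folding in the endoplasmic reticulum (ER), the compartment that receptors and secreted defence proteins pass through, showed no lower member at 8 h. Of 23 tested, 21 were higher and 0 lower, and the median interaction of 3.22 stood beside 0.42 at 4 h. BIP2 (AT5G42020, chr5:16807342-16810693), the main ER chaperone of the HSP70 type, stood at 94.9, 48.3 and 64.5 CPM in Col-0 at 0 h, 76.0, 102 and 96.5 in Col-0 at 8 h, 59.3, 50.5 and 78.3 in 35S:RPS4 at 0 h and 1546, 1535 and 1270.4 in 35S:RPS4 at 8 h. The interaction was 0.80 at 4 h and 4.13 ± 0.34 at 8 h (adjusted p 1.60e-08), and the change was called (adjusted p 4.93e-07). PDIL1-2 (AT1G77510), a disulfide isomerase, stood at 31.1, 21.4 and 27.6 CPM in Col-0 at 0 h, 42.3, 44.3 and 46.6 in Col-0 at 8 h, 30.6, 23.4 and 28.7 in 35S:RPS4 at 0 h and 843, 891 and 674 in 35S:RPS4 at 8 h. Its interaction rose between the times by 3.74 ± 0.29 (adjusted p 4.37e-08), to 4.13 ± 0.30. The summed level of the list was 9553 to 12036 CPM in 35S:RPS4 at 8 h and 942.8 to 1640 in the other 9 libraries. BIP3, a stress-induced chaperone of the same kind, reached 158, 219 and 97.8 CPM and was between 0 and 1.07 CPM elsewhere. Its call (interaction 7.14 ± 1.83, adjusted p 0.00241) was lost without Col-0 replicate 2 or 3 at 0 h (adjusted p 0.0228 and 0.0216), and with replicate 1 alone there (0.428).

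Most heat stress factors and heat shock proteins fell in Col-0 between 0 h and 8 h. Of 16 tested, 11 were higher and 3 lower, with a median response of -3.71 in Col-0 and -1.22 in 35S:RPS4. HSP90.1 (AT5G52640, chr5:21352557-21355147) stood at 845, 556 and 734 CPM in Col-0 at 0 h, 3.72, 3.45 and 7.03 in Col-0 at 8 h, 579, 720.5 and 992 in 35S:RPS4 at 0 h and 2242, 1647 and 1979.5 in 35S:RPS4 at 8 h. The response was -7.23 ± 0.39 in Col-0 and 1.36 ± 0.30 in 35S:RPS4, an interaction of 8.59 ± 0.48 (adjusted p 2.90e-10). HSP70 (AT3G12580) stood at 2453, 1483 and 2161 CPM in Col-0 at 0 h, 14.3, 14.5 and 17.1 in Col-0 at 8 h, 1997, 2216 and 2872 in 35S:RPS4 at 0 h and 1084, 1024 and 1114 in 35S:RPS4 at 8 h. It fell in both lines, less far in 35S:RPS4, with an interaction of 5.92 ± 0.52. HSP17.4 (AT3G46230), whose heat shock elements are printed above, stood at 70.2, 37.5 and 35.8 CPM in Col-0 at 0 h, 0.0647, 0.395 and 0.228 in Col-0 at 8 h, 29.5, 68.9 and 77.3 in 35S:RPS4 at 0 h and 17.8, 20.15 and 13.5 in 35S:RPS4 at 8 h. An interaction of 5.91 ± 0.84 was called for it (adjusted p 8.67e-06). The summed level of the list was 65.8 to 76.1 CPM in Col-0 at 8 h and 3115 to 3821 in 35S:RPS4 at 8 h. The lower genes included HSFA7A, with 0.0448, 0.0564 and 0.0355 CPM in 35S:RPS4 at 8 h and between 0.228 and 1.77 CPM elsewhere. HSFA7A was not called in 10 of the alternatives, among them without any single library of 35S:RPS4 at 8 h (adjusted p 0.0135 to 0.0163). The number of lower heat genes was 1 without Col-0 replicate 3 at 0 h, Col-0 replicate 2 at 8 h, 35S:RPS4 replicate 2 at 0 h or 35S:RPS4 replicate 1 or 3 at 8 h.

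Of 16 tested cold-responsive genes, 10 rose and 0 fell in Col-0, and 7 rose and 2 fell in 35S:RPS4. In the interaction, 1 was higher and 6 lower, with median responses of 1.77 in Col-0 and 0.42 in 35S:RPS4. DREB1A (AT4G25480), also called CBF3, a master regulator of cold acclimation, stood at 0.486, 0.632 and 0.440 CPM in Col-0 at 0 h, 24.9, 25.8 and 36.6 in Col-0 at 8 h, 0.540, 0.288 and 1.55 in 35S:RPS4 at 0 h and 3.40, 3.297 and 2.77 in 35S:RPS4 at 8 h. It rose by 5.79 ± 0.39 in Col-0 and 1.98 ± 0.36 in 35S:RPS4, an interaction of -3.81 ± 0.53 (adjusted p 6.64e-06). COR413-PM1 (AT2G15970), a membrane protein gene of the cold regulon, stood at 55.6, 154 and 77.6 CPM in Col-0 at 0 h, 214, 308 and 283 in Col-0 at 8 h, 39.1, 56.7 and 32.2 in 35S:RPS4 at 0 h and 13.2, 14.8 and 14.8 in 35S:RPS4 at 8 h. Here Col-0 rose and 35S:RPS4 fell, and the 8 h groups did not overlap (interaction -3.07 ± 0.44). The higher gene was ICE1, which acts above the CBF genes, with an interaction of 1.27 ± 0.18. With Col-0 at 0 h reduced to replicate 1, 9 cold genes were lower, and 3 were higher and 5 lower without that replicate.

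Circadian clock genes responded in both lines, with few called differences. Of 21 tested, 4 were higher and 1 lower, although 10 rose and 9 fell in Col-0 and 11 rose and 9 fell in 35S:RPS4. LHY (AT1G01060), a morning gene, stood at 294, 236 and 335 CPM in Col-0 at 0 h, 7.06, 3.29 and 3.77 in Col-0 at 8 h, 377, 387 and 282 in 35S:RPS4 at 0 h and 20.07, 12.5 and 14.9 in 35S:RPS4 at 8 h. It fell in both lines, with responses of -5.94 ± 0.28 in Col-0 and -4.47 ± 0.26 in 35S:RPS4, and the interaction of 1.47 ± 0.33 was called (adjusted p 0.000866). BOA, an evening gene, rose further in 35S:RPS4, to 17.7, 18.9 and 17.3 CPM against 3.08, 5.26 and 5.33 in Col-0 (interaction 2.40 ± 0.41). LCL1 (RVE4), the lower gene, fell in both lines and further in 35S:RPS4 (interaction -1.08 ± 0.16). Without Col-0 replicate 2 at 8 h its interaction was -0.99, short of the threshold.

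Regulators and enzymes of growth were lower more often than higher in each of the next 4 lists. Of 19 tested regulators of growth by light and warmth, 2 were higher and 10 lower (median -1.54, or -1.44 with such bounds). PIF4 (AT2G43010), the bHLH factor that promotes growth in warmth, stood at 43.7, 71.3 and 71.4 CPM in Col-0 at 0 h, 72.0, 55.5 and 64.8 in Col-0 at 8 h, 61.5, 59.5 and 28.7 in 35S:RPS4 at 0 h and 3.14, 2.51 and 2.52 in 35S:RPS4 at 8 h. The response was 0.05 ± 0.26 in Col-0 and -4.20 ± 0.31 in 35S:RPS4, an interaction of -4.25 ± 0.39 (adjusted p 6.95e-08). HBI1, a bHLH factor that favours growth over immunity, rose in Col-0 to 133, 68.9 and 70.0 CPM and fell in 35S:RPS4 to 0.762, 0.423 and 0.567 (interaction -7.33 ± 0.64). HYH, a bZIP factor of light signalling, fell in Col-0 to 9.03, 9.93 and 7.16 CPM from 97.5, 85.6 and 115, while 35S:RPS4 stood at 89.2, 101 and 143 at 0 h and 83.4, 80.9 and 84.4 at 8 h (interaction 3.09 ± 0.24).

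Auxin genes had 1 higher and 11 lower members of 18 tested (median -2.58). PIN7 (AT1G23080), an auxin efflux carrier, stood at 47.9, 27.5 and 31.6 CPM in Col-0 at 0 h, 153, 127 and 107 in Col-0 at 8 h, 45.9, 49.8 and 27.3 in 35S:RPS4 at 0 h and 0.493, 0.676 and 0.567 in 35S:RPS4 at 8 h. Its responses were 1.86 ± 0.30 in Col-0 and -6.11 ± 0.41 in 35S:RPS4, an interaction of -7.97 ± 0.51 (adjusted p 1.07e-09). SHY2 (IAA3), a repressor of auxin response, fell to 0.851, 0.902 and 1.84 CPM in 35S:RPS4 at 8 h from 103, 87.4 and 106 (interaction -5.56 ± 0.37). GH3.3, which conjugates auxin to amino acids, was the higher gene (interaction 4.45 ± 1.01), and with Col-0 replicate 1 alone at 0 h it was not called (3.31, adjusted p 0.0331). Of 15 tested brassinosteroid and gibberellin genes, 1 was higher and 9 were lower (median -2.08). CPD (AT5G05690), an enzyme of brassinosteroid synthesis, stood at 81.8, 81.2 and 69.9 CPM in Col-0 at 0 h, 106, 101 and 98.0 in Col-0 at 8 h, 120.0, 91.4 and 103 in 35S:RPS4 at 0 h and 5.20, 6.23 and 4.50 in 35S:RPS4 at 8 h. Its interaction was -4.69 ± 0.20 (adjusted p 1.96e-11). GA3OX1, which makes active gibberellin, had 0 counts in 35S:RPS4 at 8 h, against 5.08, 4.77 and 3.87 CPM in Col-0 at 8 h and 0.730, 0.618 and 0.442 in 35S:RPS4 at 0 h. GID1B, a gibberellin receptor, was the higher gene, with 3.68, 11.5 and 6.97 CPM in Col-0 at 0 h, 1.29, 0.526 and 1.95 in Col-0 at 8 h, 6.602, 4.45 and 4.90 in 35S:RPS4 at 0 h and 30.1, 31.0 and 38.2 in 35S:RPS4 at 8 h.

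Cell wall expansion gave one of the lowest medians, -4.97 log2 units at 8 h beside -1.06 at 4 h, with 15 of 18 tested genes lower and 1 higher. EXPA5 (AT3G29030, chr3:11011262-11013451), an expansin that loosens walls, stood at 94.1, 52.8 and 67.0 CPM in Col-0 at 0 h, 80.9, 91.5 and 53.3 in Col-0 at 8 h, 67.7, 75.4 and 93.0 in 35S:RPS4 at 0 h and 0.448, 0.254 and 0.248 in 35S:RPS4 at 8 h. Every library of 35S:RPS4 at 8 h lay far below every other library, and the interaction was -8.07 ± 0.41 (adjusted p 1.22e-10). Its change from 4 h, -6.23 ± 0.41, was also called (adjusted p 7.63e-09). XTH31 (AT3G44990), a xyloglucan-modifying enzyme, stood at 119, 77.2 and 136 CPM in Col-0 at 0 h, 303, 267 and 209 in Col-0 at 8 h, 157, 199 and 104 in 35S:RPS4 at 0 h and 0.806, 0.338 and 0.461 in 35S:RPS4 at 8 h. Its responses were 1.23 ± 0.36 in Col-0 and -8.22 ± 0.52 in 35S:RPS4, an interaction of -9.44 ± 0.63. The higher gene was TCH4, a touch-induced enzyme of the same family, with an interaction of 2.48 ± 0.54 that had been 6.10 at 4 h. Limma voom did not call it (adjusted p 0.0160).

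GER3 (AT5G20630), a germin-like wall protein, had the lowest interaction of the named genes with over 3 counts in each group. It stood at 51.0, 12.5 and 9.40 CPM in Col-0 at 0 h, 606, 839 and 771 in Col-0 at 8 h, 9.36, 14.3 and 28.9 in 35S:RPS4 at 0 h and 0.269, 0.169 and 0.213 in 35S:RPS4 at 8 h. The responses were 4.93 ± 0.82 in Col-0 and -6.35 ± 1.08 in 35S:RPS4, giving -11.27 ± 1.34 (adjusted p 1.27e-06) at 8 h after -0.94 at 4 h. MYB16 (AT5G15310), a regulator of the cuticle, stood at 34.1, 20.7 and 27.3 CPM in Col-0 at 0 h, 37.5, 32.8 and 25.9 in Col-0 at 8 h, 33.3, 41.7 and 35.5 in 35S:RPS4 at 0 h and 0.179, 0.0282 and 0 in 35S:RPS4 at 8 h. Its interaction was -9.42 ± 0.74, beside 17 of 20 tested wax and cutin genes lower and 0 higher (median -3.45). CER4 and GPAT8, enzymes of wax and cutin synthesis, had interactions of -5.34 ± 1.01 and -5.36 ± 0.37. Limma voom did not call CER4 (adjusted p 0.0181).

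Aliphatic glucosinolates, the methionine-derived defence compounds of intact leaves, had 11 of 16 tested genes lower and 0 higher. The list median was -5.26, or -4.75 with members at 3 or fewer counts in a group set to their bounds. Genes for these compounds had median responses of -1.61 in Col-0, where 9 fell, and -6.53 in 35S:RPS4, where 15 fell. MYB28 (AT5G61420), their main regulator, stood at 61.9, 51.0 and 27.8 CPM in Col-0 at 0 h, 50.6, 30.1 and 53.7 in Col-0 at 8 h, 42.2, 46.4 and 38.2 in 35S:RPS4 at 0 h and 0.0896, 0.310 and 0.106 in 35S:RPS4 at 8 h. Its interaction was -7.75 ± 0.60 (adjusted p 7.76e-09). MYB29, a related regulator, fell in both lines, with responses of -1.69 ± 0.34 in Col-0 and -8.82 ± 0.59 in 35S:RPS4. CYP79F1, the entry enzyme, fell to 0.806, 1.07 and 1.42 CPM in 35S:RPS4 at 8 h and stood at 91.3, 39.1 and 117 in Col-0 at 8 h (interaction -5.99 ± 0.98). Of 24 tested phenylpropanoid and flavonoid genes 5 were higher and 10 lower. Most fell in both lines. Median responses were -1.71 in Col-0, where 16 fell and 1 rose, and -2.65 in 35S:RPS4, where 19 fell and 3 rose. TT4, chalcone synthase at the entry to flavonoids, stood at 513, 237 and 571 CPM in Col-0 at 0 h, 779.9, 1058 and 423 in Col-0 at 8 h, 406, 524 and 503 in 35S:RPS4 at 0 h and 37.2, 47.6 and 33.3 in 35S:RPS4 at 8 h (interaction -4.37 ± 0.51). CCR2, cinnamoyl-CoA reductase, fell in Col-0 to 0, 0 and 0.683 CPM and rose in 35S:RPS4 to 12.5, 15.6 and 19.6 (interaction 6.26 ± 0.73).

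**Figure D3:**
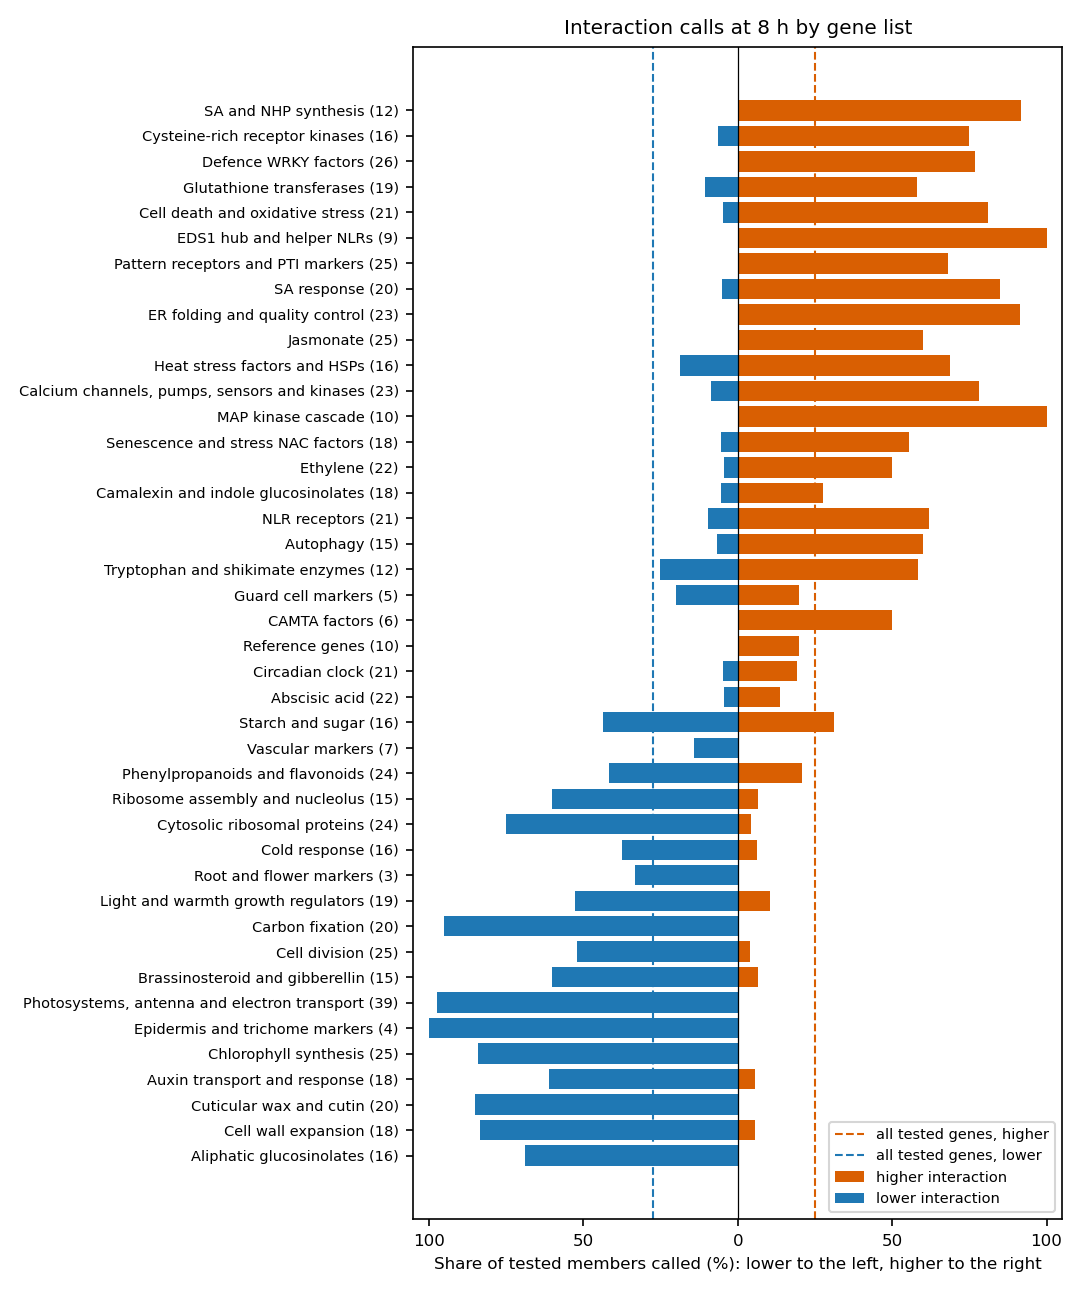
Share of tested members called lower (left, blue) or higher (right, orange) in the interaction for each of the 42 gene lists, in order of the list median, with the number tested in brackets. Dashed lines mark the shares over all tested genes, 27.3% lower and 24.9% higher. Defence, ER and jasmonate lists reach past the right line, and photosynthesis, wall and wax lists past the left line.

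Photosynthesis genes were lower with 1 exception that was not called. Of 39 tested genes for photosystems, antenna and electron transport, 38 were lower and 0 higher. Their median interaction was -2.08 at 8 h and -0.27 at 4 h. Summed over the list, 35S:RPS4 at 8 h held 23675 to 27467 CPM and the other 9 libraries 85123 to 121110. Because CPM are shares of the RNA in each library, a fall of genes this abundant and a rise of others cannot be told apart from the shares alone, nor can fewer cells of a type from less RNA per cell. LHCB2.2 (AT2G05070, chr2:1799234-1800472), an antenna protein of photosystem II, stood at 2483, 1643 and 2235 CPM in Col-0 at 0 h, 997, 1599 and 1458 in Col-0 at 8 h, 2049.7, 2205 and 2060.1 in 35S:RPS4 at 0 h and 74.9, 65.1 and 75.2 in 35S:RPS4 at 8 h. The interaction was -4.22 ± 0.29 (adjusted p 1.83e-09), and its change from 4 h -3.01 ± 0.28 (adjusted p 2.25e-07). CAB2, another antenna gene, fell in 35S:RPS4 to 685, 518 and 494 CPM (response -3.40 ± 0.21, against 0.70 ± 0.19 in Col-0). Members of the CAB family are near copies, so reads may be split between them.

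Carbon fixation followed, with 19 of 20 tested lower and 0 higher (median -1.83, against -0.33 at 4 h). CP12-2 (AT3G62410), a small protein that links Calvin cycle enzymes, stood at 853, 522 and 762 CPM in Col-0 at 0 h, 417, 546 and 450.3 in Col-0 at 8 h, 837, 979.7 and 1120.3 in 35S:RPS4 at 0 h and 32.3, 34.8 and 24.997 in 35S:RPS4 at 8 h. Its interaction was -4.40 ± 0.29 (adjusted p 1.36e-09). Of 25 tested chlorophyll synthesis genes, 21 were lower and 0 higher (median -2.52), and here Col-0 rose for 8 and fell for 6. PORB (AT4G27440, chr4:13725546-13727440), which reduces protochlorophyllide in light, stood at 21.9, 23.9 and 17.62 CPM in Col-0 at 0 h, 1223, 1585 and 1274 in Col-0 at 8 h, 16.6, 14.8 and 13.8 in 35S:RPS4 at 0 h and 11.6, 12.4 and 12.7 in 35S:RPS4 at 8 h. It rose by 6.01 ± 0.22 in Col-0, and the response of -0.30 ± 0.18 in 35S:RPS4 was not called (interaction -6.31 ± 0.27, adjusted p 2.49e-11). GUN4 (AT3G59400), an activator of magnesium chelatase, stood at 214, 304 and 243 CPM in Col-0 at 0 h, 59.0, 47.2 and 67.7 in Col-0 at 8 h, 204, 322 and 199.5 in 35S:RPS4 at 0 h and 1.21, 0.902 and 1.84 in 35S:RPS4 at 8 h. It fell in both lines and further in 35S:RPS4 (interaction -5.39 ± 0.36). GLK2, a factor that drives chloroplast genes, did the same, ending at 2.06, 2.85 and 2.34 CPM against 64.7, 48.6 and 59.0 in Col-0 (interaction -4.71 ± 0.26).

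Starch and sugar genes were split, 5 higher and 7 lower of 16 tested. SEX1 (AT1G10760), which starts starch breakdown, stood at 136, 126 and 147 CPM in Col-0 at 0 h, 1339, 773 and 875 in Col-0 at 8 h, 168, 132 and 119 in 35S:RPS4 at 0 h and 177, 159.8 and 171 in 35S:RPS4 at 8 h. The Col-0 rise of 2.87 ± 0.19 had no called counterpart in 35S:RPS4 (interaction -2.59 ± 0.26, adjusted p 1.61e-07). GPT2 (AT1G61800), a glucose 6-phosphate carrier of plastids, stood at 8.09, 16.2 and 17.5 CPM in Col-0 at 0 h, 3.14, 2.60 and 2.44 in Col-0 at 8 h, 5.78, 6.06 and 5.01 in 35S:RPS4 at 0 h and 582, 391 and 550.1 in 35S:RPS4 at 8 h. It fell in Col-0 and rose in 35S:RPS4, with an interaction of 8.85 ± 0.50 (adjusted p 3.11e-10). ATBFRUCT1, a cell wall invertase, moved the same ways on a smaller scale (interaction 3.40 ± 0.47).

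Of 24 tested cytosolic ribosomal protein genes, 18 were lower and 1 higher, with median responses of 0.96 in Col-0 and -0.10 in 35S:RPS4. In Col-0 9 of them rose and 0 fell, and in 35S:RPS4 1 rose and 1 fell. AT3G09200, which encodes the stalk protein RPP0B, stood at 256, 217 and 254 CPM in Col-0 at 0 h, 535, 738 and 624 in Col-0 at 8 h, 265, 262 and 322 in 35S:RPS4 at 0 h and 278, 280.2 and 272 in 35S:RPS4 at 8 h. Its interaction was -1.41 ± 0.19 (adjusted p 3.68e-06), after 0.00 at 4 h. SAG24 (RPL10C) was the higher gene, with 1330.2, 1269 and 1293 CPM in 35S:RPS4 at 8 h and between 143 and 332 CPM elsewhere (interaction 2.09 ± 0.20). Of 15 tested genes for ribosome assembly in the nucleolus, 9 were lower and 1 higher. FIB2 (AT4G25630, chr4:13074090-13076432), a fibrillarin that methylates ribosomal RNA, stood at 58.1, 48.3 and 67.5 CPM in Col-0 at 0 h, 198, 233 and 213 in Col-0 at 8 h, 66.5, 68.6 and 76.6 in 35S:RPS4 at 0 h and 33.1, 45.4 and 36.2 in 35S:RPS4 at 8 h. It rose by 1.89 ± 0.17 in Col-0 and had a response of -0.88 ± 0.17 in 35S:RPS4, an interaction of -2.77 ± 0.24 (adjusted p 3.05e-08). AT5G27120 (NOP58-1), whose promoter is shown above, stood at 74.6, 54.2 and 80.3 CPM in Col-0 at 0 h, 217, 203 and 202 in Col-0 at 8 h, 85.1, 79.1 and 86.3 in 35S:RPS4 at 0 h and 77.3, 97.5 and 84.2 in 35S:RPS4 at 8 h. Col-0 at 8 h was higher than all other libraries, and the interaction was -1.52 ± 0.22.

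Of 25 tested cell division genes, 13 were lower and 1 higher (median -1.96, or -1.67 with such bounds), and the number lower was 8 without 35S:RPS4 replicate 3 at 8 h or with Col-0 replicate 1 alone at 0 h. CYC1BAT, a mitotic cyclin of the B type, had 0 counts in all libraries of 35S:RPS4 at 8 h and between 0.514 and 2.57 CPM elsewhere. The higher gene, CDKB2;2 (interaction 2.38 ± 0.75, adjusted p 0.00998), lost its call in 19 alternatives.

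Of 25 tested jasmonate genes, 15 were higher and 0 lower (median 3.21). Median responses were -3.74 in Col-0, where 20 fell and 0 rose, and 0.27 in 35S:RPS4, where 4 rose and 1 fell. At 0 h the mean log2 level of the list was 4.51, 7.51 and 7.15 in Col-0 and 5.26, 3.99 and 5.08 in 35S:RPS4. The size of the Col-0 fall thus rests in part on the high 0 h levels of replicates 2 and 3. TAT3 (AT2G24850, chr2:10582074-10585216), a tyrosine aminotransferase induced by jasmonate, stood at 14.5, 327 and 169 CPM in Col-0 at 0 h, 2.62, 4.31 and 11.97 in Col-0 at 8 h, 45.3, 20.5 and 12.7 in 35S:RPS4 at 0 h and 10765, 8467 and 8562 in 35S:RPS4 at 8 h. Those that rose in 35S:RPS4 were TAT3 (by 8.47 ± 1.02), AOC3, LOX4 and JAZ1, the last 2 named after their values were seen. The interaction of TAT3 was 13.22 ± 1.33 (adjusted p 1.83e-07). JAZ7 (AT2G34600), a repressor of jasmonate signalling, stood at 1.22, 16.95 and 31.7 CPM in Col-0 at 0 h, 0, 0.0658 and 0.163 in Col-0 at 8 h, 0.476, 0.536 and 0.883 in 35S:RPS4 at 0 h and 2.11, 2.68 and 2.69 in 35S:RPS4 at 8 h. Here Col-0 at 0 h differed widely among its replicates, the interaction was 9.67 ± 1.42, and limma voom did not call it (adjusted p 0.0143). AOC3, an enzyme of jasmonate synthesis, stood at 4.65, 94.96 and 12.4 CPM in Col-0 at 0 h, 0.291, 0.822 and 3.09 in Col-0 at 8 h, 14.9, 2.64 and 6.29 in 35S:RPS4 at 0 h and 356, 245 and 306 in 35S:RPS4 at 8 h. It fell in Col-0 and rose in 35S:RPS4 (interaction 9.97 ± 1.49), where all 3 libraries at 8 h lay above the rest. With Col-0 at 0 h reduced to replicate 1, 8 jasmonate genes were higher and the list median was 1.29, and limma voom called 9.

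Ethylene genes had 11 higher and 1 lower members of 22 tested (median 1.77). ERF-1 (AT4G17500), the ethylene response factor also called ERF1A, stood at 6.25, 22.4 and 76.6 CPM in Col-0 at 0 h, 3.302, 5.03 and 8.29 in Col-0 at 8 h, 4.06, 3.83 and 8.25 in 35S:RPS4 at 0 h and 203, 146 and 160.1 in 35S:RPS4 at 8 h. Its interaction was 7.64 ± 0.95 (adjusted p 2.04e-06). Abscisic acid genes had 3 higher and 1 lower of 22 tested (median 0.24). Without Col-0 replicate 3 at 8 h, 10 were higher, 2 lower and the median was 1.05. With Col-0 replicate 1 alone at 0 h, 2 were higher, 1 was lower and the median was -0.20. HAB1, a phosphatase that represses the hormone's signal, stood at 4.50, 5.03 and 32.4 CPM in Col-0 at 8 h and 137, 117 and 158 in 35S:RPS4 at 8 h, so that replicate 3 lay apart there too. PYR1, a receptor, was lower, at 8.42, 8.73 and 8.19 CPM in 35S:RPS4 at 8 h and between 35.7 and 63.9 CPM elsewhere (interaction -2.66 ± 0.23).

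NAC factors and senescence genes had 10 higher and 1 lower of 18 tested (median 1.90), and 16 higher with a median of 3.95 without Col-0 replicate 3 at 8 h. Leaving Col-0 replicate 1 alone at 0 h, 6 were higher. ATAF2 (AT5G08790), a stress-induced NAC factor, stood at 18.6, 33.9 and 30.5 CPM in Col-0 at 0 h, 22.04, 23.0 and 37.9 in Col-0 at 8 h, 17.2, 17.9 and 28.4 in 35S:RPS4 at 0 h and 795, 607 and 699.5 in 35S:RPS4 at 8 h. Its interaction was 5.05 ± 0.39 (adjusted p 7.41e-09). NYC1, which degrades chlorophyll b, was the lower gene, after a rise in Col-0 to 369, 459 and 389.6 CPM (interaction -1.52 ± 0.18). Autophagy genes had 9 higher and 1 lower of 15 tested, and a median of 1.42 beside 0.28 at 4 h. ATG8B (AT4G04620), a membrane tag of autophagosomes, stood at 15.5, 18.18 and 16.4 CPM in Col-0 at 0 h, 11.1, 17.3 and 13.6 in Col-0 at 8 h, 17.7, 17.7 and 16.8 in 35S:RPS4 at 0 h and 210.0, 170.0 and 183 in 35S:RPS4 at 8 h. Its change between the times was 3.598 ± 0.21 (adjusted p 2.77e-09), to an interaction of 3.68 ± 0.21. ATG8F, another member of the family, was lower (interaction -1.77 ± 0.26).

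**Figure D4:**
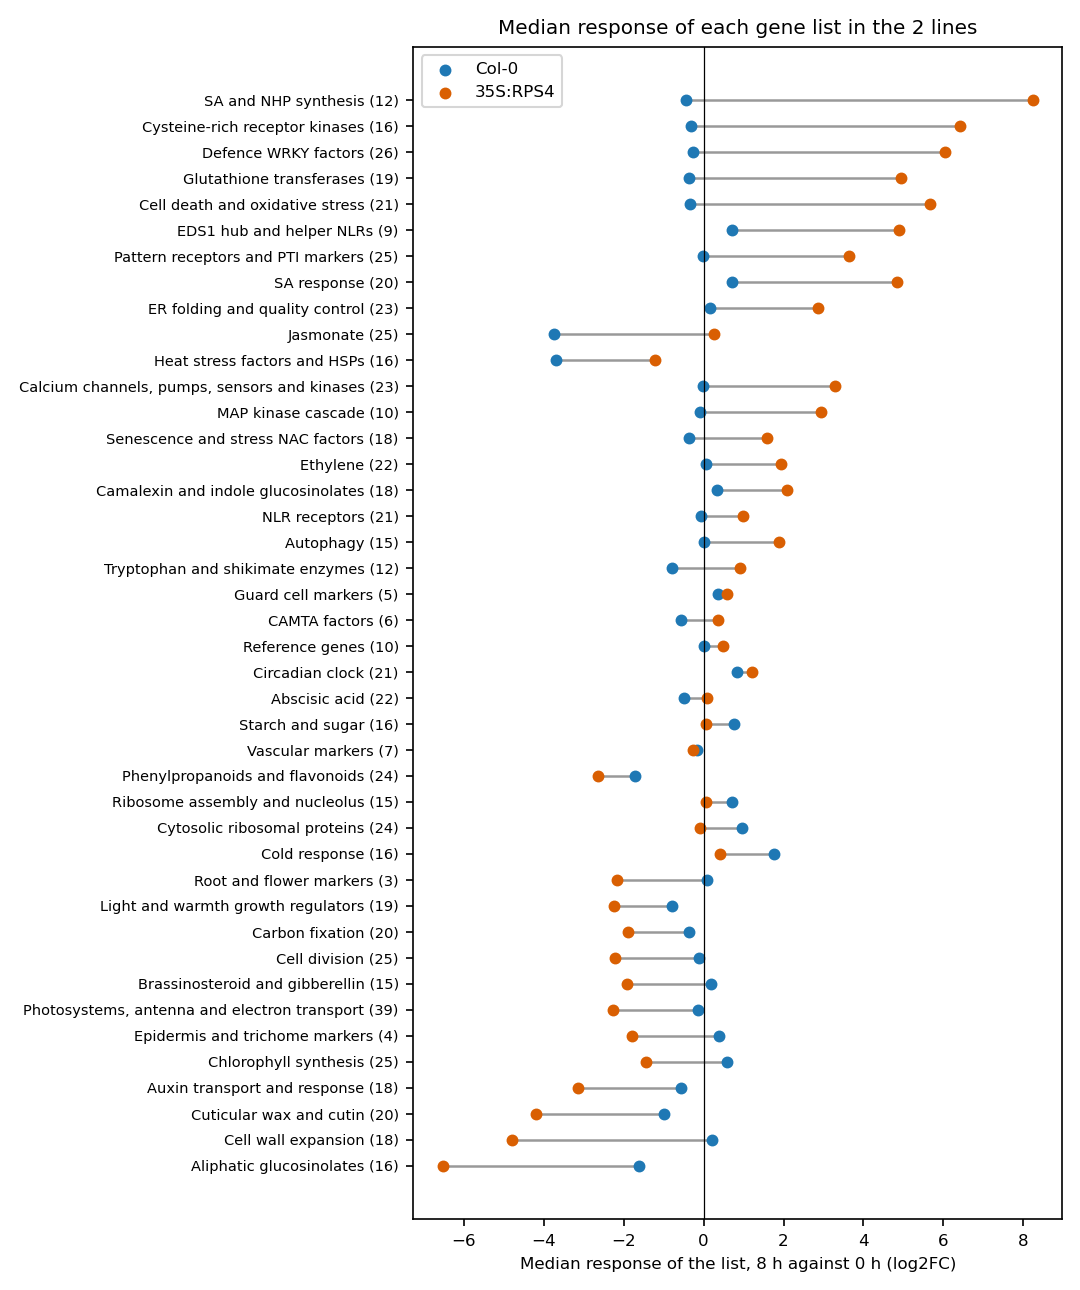
Median log2 response of each list over 8 h in Col-0 (blue) and 35S:RPS4 (orange), joined by a line as long as their difference. Most lists moved further in 35S:RPS4 than in Col-0. Among those that moved further in Col-0 were the jasmonate and heat lists, at -3.74 and -3.71 there. The heat list also fell in 35S:RPS4, at -1.22. The cold and cytosolic ribosomal protein lists, at 1.77 and 0.96 in Col-0, moved further in Col-0 too.

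Among the genes with the largest interactions of all, CYP82G1 (AT3G25180), which makes a volatile homoterpene, stood at 0.729, 12.1 and 8.48 CPM in Col-0 at 0 h, 0.0971, 0.132 and 0.553 in Col-0 at 8 h, 1.02, 0 and 0.0368 in 35S:RPS4 at 0 h and 103, 64.0 and 64.7 in 35S:RPS4 at 8 h. Its interaction was 12.37 ± 1.35 (adjusted p 4.55e-07). TPS04, which acts a step earlier on the same path, was at 27.1, 12.8 and 3.40 CPM in 35S:RPS4 at 8 h and between 0.0324 and 45.5 CPM elsewhere, and limma voom did not call it (adjusted p 0.0272). With Col-0 replicate 1 alone at 0 h its interaction was 5.88 and not called (adjusted p 0.0173). WAK3 (AT1G21240), a wall-associated kinase, stood at 0.174, 0.465 and 0.330 CPM in Col-0 at 0 h, 0.0647, 0.263 and 0.228 in Col-0 at 8 h, 0.127, 0.330 and 0.221 in 35S:RPS4 at 0 h and 654, 538 and 563 in 35S:RPS4 at 8 h. The libraries of 35S:RPS4 at 8 h again lay above all others (interaction 12.16 ± 0.85, adjusted p 2.85e-09). At the other end stood UMAMIT47 (AT3G28080), of a family of amino acid transporters, with 31.6, 21.9 and 26.7 CPM in Col-0 at 0 h, 33.3, 30.9 and 25.9 in Col-0 at 8 h, 35.4, 42.4 and 29.3 in 35S:RPS4 at 0 h and 0.0448, 0.0564 and 0.0355 in 35S:RPS4 at 8 h. Its interaction was -9.62 ± 0.47 (adjusted p 8.49e-11), after -2.64 at 4 h.

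MEE14 and G3Pp1 are examples of genes that moved in both lines but less far in 35S:RPS4. MEE14 (AT2G15890), named for an embryo arrest phenotype in mutants, stood at 0.972, 1.53 and 0.551 CPM in Col-0 at 0 h, 305, 445 and 366 in Col-0 at 8 h, 1.52, 1.36 and 2.28 in 35S:RPS4 at 0 h and 13.6, 12.3 and 8.01 in 35S:RPS4 at 8 h. It rose by 8.50 ± 0.42 in Col-0 and 2.71 ± 0.35 in 35S:RPS4, an interaction of -5.79 ± 0.51 (adjusted p 3.53e-08). G3Pp1 (AT3G47420), a phosphate starvation gene for a glycerol 3-phosphate permease, stood at 108, 209.9 and 221 CPM in Col-0 at 0 h, 4.99, 5.23 and 5.07 in Col-0 at 8 h, 168, 131 and 169 in 35S:RPS4 at 0 h and 68.7, 48.2 and 76.2 in 35S:RPS4 at 8 h. Its responses were -5.14 ± 0.32 in Col-0 and -1.28 ± 0.27 in 35S:RPS4, an interaction of 3.86 ± 0.40. Of genes called the same way and further in 35S:RPS4, PCR1 (AT1G14880), a cadmium resistance gene, stood at 0.764, 3.29 and 0.844 CPM in Col-0 at 0 h, 6.54, 11.4 and 11.5 in Col-0 at 8 h, 1.301, 2.31 and 0.515 in 35S:RPS4 at 0 h and 2876, 2302 and 2804 in 35S:RPS4 at 8 h. The interaction was 8.36 ± 0.79 (adjusted p 8.14e-08).

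Genes whose interaction changed between 4 h and 8 h were counted in a contrast in which the 0 h libraries cancel. It was higher at 8 h for 2668 genes (13.3%) and lower for 4588 (22.9%). Among the named genes, MAPKKK19 (13.37 at 4 h, 11.74 at 8 h) and CML37 (11.79 and 11.93) were not called in it. With Col-0 replicate 1 alone at 0 h, the 8 h interaction of CML37 was 8.86 and not called (adjusted p 0.0128). SARD1 and MPK11 were called with lower values at 8 h (changes of -1.297 ± 0.31 and -2.52 ± 0.41).

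Markers of other cell types were checked beside these results. Of 5 tested guard cell markers 1 was higher and 1 lower, with summed levels of 37.5 to 53.6 CPM in the other groups and 49.9 to 73.3 in 35S:RPS4 at 8 h. Of 7 vascular markers 1, SWEET11, was lower, and their sum was 92.2 to 206 CPM in 35S:RPS4 at 8 h and 224 to 454 elsewhere. With Col-0 replicate 1 alone at 0 h SWEET11 was not called (adjusted p 0.0198), nor was the lower guard cell gene, MYB60 (adjusted p 0.0241). All 4 tested epidermis and trichome markers were lower, with sums of 63.4 to 66.6 CPM against 265 to 457. These lay lower beside the falls of wax, cutin and wall genes, and their part in those results was not tested. GL1 (MYB0 in RefSeq) had 0 counts in these libraries, as had RHD6 and EXPA7 of root hairs. Of 3 tested root and flower markers 1, SEP3 of flowers, was lower, with sums of 3.36 to 18.4 CPM against 10.2 to 96.7. Of 10 genes often used as references 2, UBQ10 and GAPC1, were higher (interactions 2.37 ± 0.33 and 2.08 ± 0.19), with the list median at 0.34.

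Motif shares were then set against the interaction, over 19858 promoters of 250 bases. A W box stood in 44.9% of all promoters, in 51.8% of those of higher genes, 40.0% of lower genes and 44.1% of genes not called. A CAMTA box stood in 7.54% of all, 9.44% of higher and 6.23% of lower genes. From interactions below -4 to above 4, the share with a W box went from 38.9% to 61.0%, that with a CAMTA box from 4.63% to 11.5% and that with a heat shock element from 8.20% to 16.3%. Among the genes that fell in Col-0 and rose in 35S:RPS4, 59.6% held a W box and 13.8% a CAMTA box. Of the PTI list 88.0% held a W box, of the CRK list 81.2% and of the WRKY list 76.9%. Also above the share of all promoters were the lists of glutathione transferases (73.7%), cell death (61.9%), jasmonate (60.0%), calcium genes (56.5%) and intracellular receptors (47.6%). Some lists with mostly higher members lay below the share of all promoters. They included the EDS1 list (44.4%, 4 of 9) and the SA and NHP synthesis list (41.7%, 5 of 12). Shares in lists this small turn on single promoters. Of the MAP kinase list 40.0% held a W box, of the SA response list 35.0% and of the ER folding list 34.8%. Lists with mostly lower members also lay on both sides of the share of all promoters. Cytosolic ribosomal proteins (54.2%), light and warmth regulators (47.4%) and brassinosteroid and gibberellin genes (46.7%) lay above it. So did the auxin, cell division and epidermis lists. Those below it included cell wall expansion (27.8%) and photosystems (41.0%).

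Site II elements showed another pattern. Their share was 16.7% over all promoters, 9.54% below -4, 20.6% between -2 and -1, 19.6% between -1 and 1 and 8.41% above 4, so the share was lowest at both ends of the range. In the ribosomal protein list 62.5% held a site II element and 16.7% a telo box, against 3.69% with a telo box over all. Evening elements stood in 2.55% of all promoters, in 6.90% of lower genes called in Col-0 alone and in 16.7% of the 48 lower genes that moved in both lines but less far in 35S:RPS4. Of the 274 higher genes that rose in both lines and further in 35S:RPS4, 8.03% held one. I boxes stood in 12.3% of all promoters and in 16.3% of those below -4. A match of letters is a description of the sequence and says nothing of binding.

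**Figure D5:**
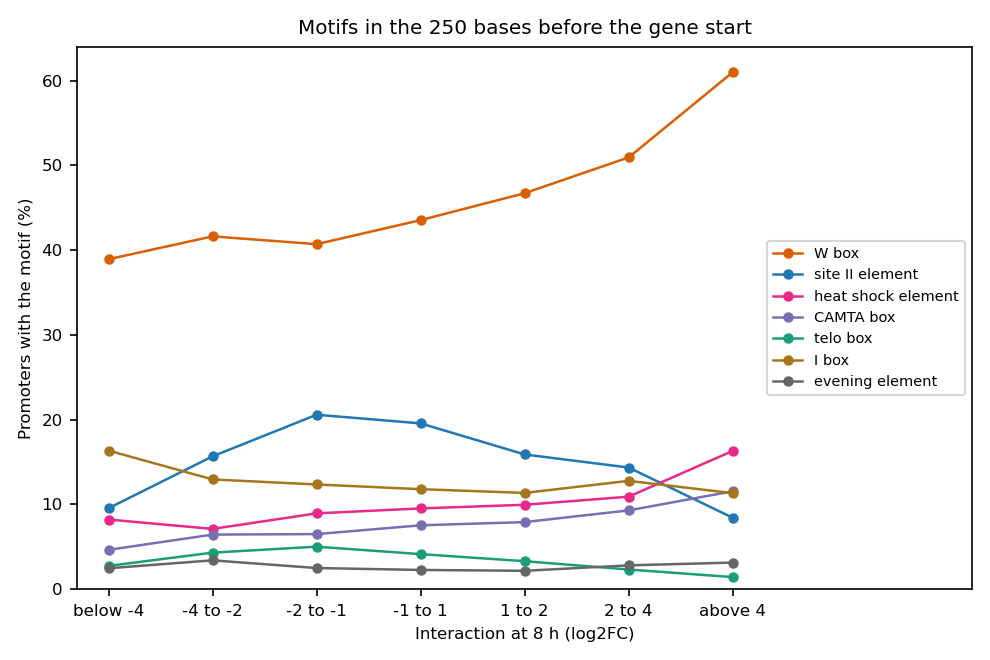
Share of promoters (y axis, percent of the 250-base windows) with each of 7 motifs in bins of the interaction (x axis, log2FC). The W box line goes from 38.9% below -4 to 61.0% above 4, and the site II line runs from 9.54% below -4 through 19.6% between -1 and 1 to 8.41% above 4.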

How the data were processed

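Leaf RNA was depleted of ribosomal RNA, primed with oligo-dT and sequenced as paired ends. The submitters' processing notes name FastQC 0.11.2, TopHat2 2.0.10, HTSeq and the TAIR10 build, and give no settings. The deposited table holds whole-number counts per gene, not normalised, for all 18 libraries. The HTSeq version and strand setting are not given in the sources used here, so for the 36 of 217 named genes that overlap exons on the other strand, and the 12 that overlap another gene on the same strand, reads of both could be mixed. Between 48.5% and 49.2% of the table's total per library stood in the summary line for reads assigned to no gene. Such reads may lie outside genes or on a strand that was not counted, and which of these applied was not tested. The 5 summary lines were left out.

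Of 32678 genes, 20023 passed edgeR's expression filter (edgeR 4.0.16 in R 4.3.3) and 12655 were removed, of which 7781 had 0 counts throughout. All 18 libraries were fitted together in 6 groups, with TMM scaling and the quasi-likelihood test, and p-values were adjusted over all tested genes by the Benjamini-Hochberg method. The interaction at 8 h, its 2 responses and its change from 4 h were contrasts of this fit. Depth of the 12 libraries was 23907787 to 36291942 counts in genes, so 3 counts equalled 0.0845 to 0.134 CPM. TMM factors ran from 0.910 to 1.15.

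The comparison, the 42 gene lists (756 genes, 739 tested) and the tests were chosen with earlier results of these data known. Named genes were RPS4, the called genes with a symbol, 5 CPM in a group and over 3 counts in each group that had the 15 largest or 15 smallest interactions or the 5 largest in a class, and in each list up to 4 called members of the more frequent direction and up to 2 of the other, by size. Genes named outside this rule are said to be so. Some genes that met the rule are not reported here. Alternatives were median-of-ratios scaling, library totals, other filters, DESeq2 1.42.0, limma 3.58.1 with voom, the 12 libraries alone, a replicate block, and leaving out libraries. Promoters came from the RefSeq annotation of TAIR10.1, which held 31912 of the table's genes. The fitting steps were tested on simulated data. Plots were drawn with matplotlib 3.10.9.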

Additional observations from a re-analysis of the deposited data

Results flagged for a closer look

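The interaction is itself a test of whether 2 lines differ in their response to the same shift, and it passed for 4986 genes with a higher and 5464 with a lower value. In 371 of the higher genes Col-0 fell and 35S:RPS4 rose, each past the thresholds. In 427 of the lower genes Col-0 rose and 35S:RPS4 fell. WRKY46, RPP1, HSP90.1 and GID1B are examples of the first kind and PIN7, HBI1, LOL1 and COR413-PM1 of the second. Groups of 3 libraries were not tested for outlying values, and the libraries singled out above were picked by their list levels alone.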

How the results depend on the processing

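Over all genes, every count of called genes stayed within 1.5 times its value under each alternative, and no result that was called changed its direction. Classes did too, except that with Col-0 at 0 h reduced to replicate 1 the opposite classes fell to 191 and 218 genes and the higher class called in Col-0 only to 274. Of 217 named genes, 44 lost their call in at least 1 of the settings, none of which turned its sign. Leaving out each library in turn gave 4705 to 5007 genes with a higher and 5216 to 5520 with a lower interaction. The same gave 1897 to 2127 up and 2018 to 2467 down in Col-0, 5186 to 5389 up and 5635 to 5995 down in 35S:RPS4, and 2457 to 2920 higher and 4214 to 4678 lower for the change from 4 h. DESeq2 called 5277 higher and 5670 lower, and limma voom 5166 and 5378. With library totals the counts were 4436 and 5882, and the median over all genes moved from -0.06 to -0.21. Replicate numbers were not treated as pairs in the main fit. Same-numbered libraries correlated at -0.14 to 0.27, and not every library correlated best with its own number. With 3 libraries per group this cannot exclude pairing. A replicate block gave 5003 higher and 5414 lower genes.

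The spread among the 3 Col-0 libraries at 0 h limits the results. With replicate 1 alone there, which assumes that it varies like the other groups, 4168 genes were higher and 4977 lower, and 1530 rose and 1649 fell in Col-0. List medians ranged over all alternatives from 3.65 to 6.82 for cell death, 6.01 to 9.16 for CRKs and 3.97 to 5.87 for glutathione transferases. Low counts also limit single genes. FRK1, BIP3, WRKY62, WRKY75 and WRKY51 lost their calls in that setting, and the cause was not tested. Small counts within lists also moved. Over all alternatives 1 to 2 intracellular receptor genes, 1 to 3 ethylene genes and 1 to 3 abscisic acid genes were lower, and 3 to 5 phenylpropanoid genes, 0 to 1 ribosome assembly genes and 0 to 1 cell wall genes were higher.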
